A study of Drosophila melanogaster with 13 samples.

Results

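Vajk1 (FBgn0028938) is a Drosophila gene of 2847 bp on the minus strand of chromosome arm 2L, whose coding sequence lies between 13921828 and 13923360 of the dm6 genome (Vajk1-RA). Its members here are all variant sites that the deposited allele tables list within the annotated span of the gene, from the start of its 5′ UTR to the end of its 3′ UTR, and the sites in the 5 kb on each side are given apart. The tables list 31 such sites in the gene and 191 in the flanks, of 1679136 sites in the whole series. Each site was followed through 12 pools of whole adult flies as the percentage of reads that carry the alternative allele, that is, the allele that differs from the reference genome.

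Each pool held DNA of 100 females and each population was sequenced as 1 pool. Assimilated flies came from populations selected for ectopic wing veins after a pupal heat shock and then without it. Nonassimilated flies were selected for ectopic veins without heat shock and were derived from the control populations, which were kept without selection, while P0 is the ancestral population. Mix is an outbred population made from inbred lines of the Drosophila Genetic Reference Panel, and it was taken through 2 experiments, each with an assimilated, a nonassimilated, a control and a P0 pool. D907 is 1 of those inbred lines and had 1 pool of each of the same kinds. By the paper's methods, experiment 2 of Mix was begun many generations after experiment 1. The paper describes strong selection in experiment 2 from its beginning, and in experiment 1 only after several generations. All flies were raised at 25 °C apart from the heat shock.

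The Vajk genes encode proteins of the insect cuticle, the layered matrix that epidermal cells, those of the wing included, secrete on their outer side. Vajk1, Vajk2 and Vajk3 lie beside the Nimrod genes on 2L, all on the same side of them. Nimrod genes encode receptors and secreted proteins of blood cells, several of which take part in phagocytosis. The annotation places the whole of Vajk1 inside an intron of Ance-3, which runs on the opposite strand and encodes a relative of angiotensin-converting enzyme, so each Vajk1 site is also an intronic site of Ance-3.

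In the transcript Vajk1-RA, 15 of the 31 sites lay in coding sequence, 9 in introns, 6 in the 3′ UTR and 1 in the 5′ UTR. All 15 coding sites fell on the third base of a codon. In the reference sequence, all 3 single-base substitutions would keep the amino acid at 6 of these sites, 2 of 3 at 1 site and 1 of 3 at 8 sites. Allele bases are not given with the counts, so whether a given variant kept the amino acid could not be read from them. The reference sequence around the sites on which the comparisons turn is shown on the Vajk1 strand, 5′ to 3′, with the site in capitals. The first 4 sites had the same allele fixed in both assimilated pools, and the last 2, in coding exon 3, had opposite alleles fixed in them.
13922648 (exon 2, chr2L:13922634-13922662): tatccggtgatcaaAcacattccctacga
13922798 (exon 2, chr2L:13922784-13922812): catcatcacgtgccTcacttcccggtgca
13922915 (exon 2, chr2L:13922901-13922929): gccgccgctcccgcCgaggagaagaaggc
13923284 (intron, chr2L:13923270-13923298): ggactcagtaataaTcatagaatgcagaa
13921888 (exon 3, chr2L:13921874-13921902): caccccattgtggaAcatgagcacgaggt
13921996 (exon 3, chr2L:13921982-13922010): aagcacgtgccggaAtaccatgagaagca

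Over the sites of Vajk1 the median depth was 86 reads in assimilated, 99 in nonassimilated, 91 in control and 98 in P0 flies of Mix experiment 1. The medians of experiment 2 were 85, 83, 69 and 76 reads in the same order. A change was tested at each site by Fisher's exact test on the reads, Bonferroni-adjusted for the number of sites in the table, and a site is called changed at an adjusted p below 1e-05. At 80 reads in both pools, an allele had to be lost from at least 41.25% in P0 to pass in the Mix tables. A test on reads of 1 pool per population compares these pools, and the spread between replicate populations of 1 experiment was not measured. Sites within a gene are linked, so a count of changed sites is not a count of independent events.

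In both experiments the assimilated flies of Mix had lost nearly all variation in Vajk1, but which alleles they kept differed along the gene. In experiment 1, 20 of 20 listed sites held 1 allele at 98% of reads or more in assimilated flies, against 11 of 20 in nonassimilated, 2 of 31 in control and 2 of 31 in P0 flies. In experiment 2 the counts were 19 of 19 in assimilated, 14 of 29 in nonassimilated, 2 of 31 in control and 3 of 31 in P0 flies. Such fixation was common elsewhere too. Of the sites where both alleles were at 5% or more in P0, assimilated flies of experiment 1 had fixed 100% in Vajk1. The share was 98.9% in the 5 kb flanks, 55.2% on 2L and 40.5% of all sites. Assimilated flies of experiment 2 had fixed 100% of them in Vajk1, 98.6% in the flanks, 52.8% on 2L and 59.6% of all sites. Nearly complete fixation was thus shared by the gene and its flanks. Nonassimilated flies of experiment 1 had fixed 50% of such sites in Vajk1, 44.9% in the flanks, 38.6% on 2L and 49.3% of all sites. In experiment 2 they had fixed 42.3% in Vajk1, 24.3% in the flanks, 64.8% on 2L and 70.3% of all sites. Over the 17 sites listed for all 8 Mix pools, the mean expected heterozygosity (2pq) was 0.0013 ± 0.0052 in assimilated, 0.219 ± 0.239 in nonassimilated, 0.388 ± 0.159 in control and 0.382 ± 0.154 in P0 flies of experiment 1 (SD over sites). In experiment 2 it was 0 in assimilated, 0.0359 ± 0.0426 in nonassimilated, 0.365 ± 0.146 in control and 0.369 ± 0.147 in P0 flies. Of these sites, 2, at codons 301 and 48, carried only the alternative allele in all 8 pools.

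**Figure D1:**
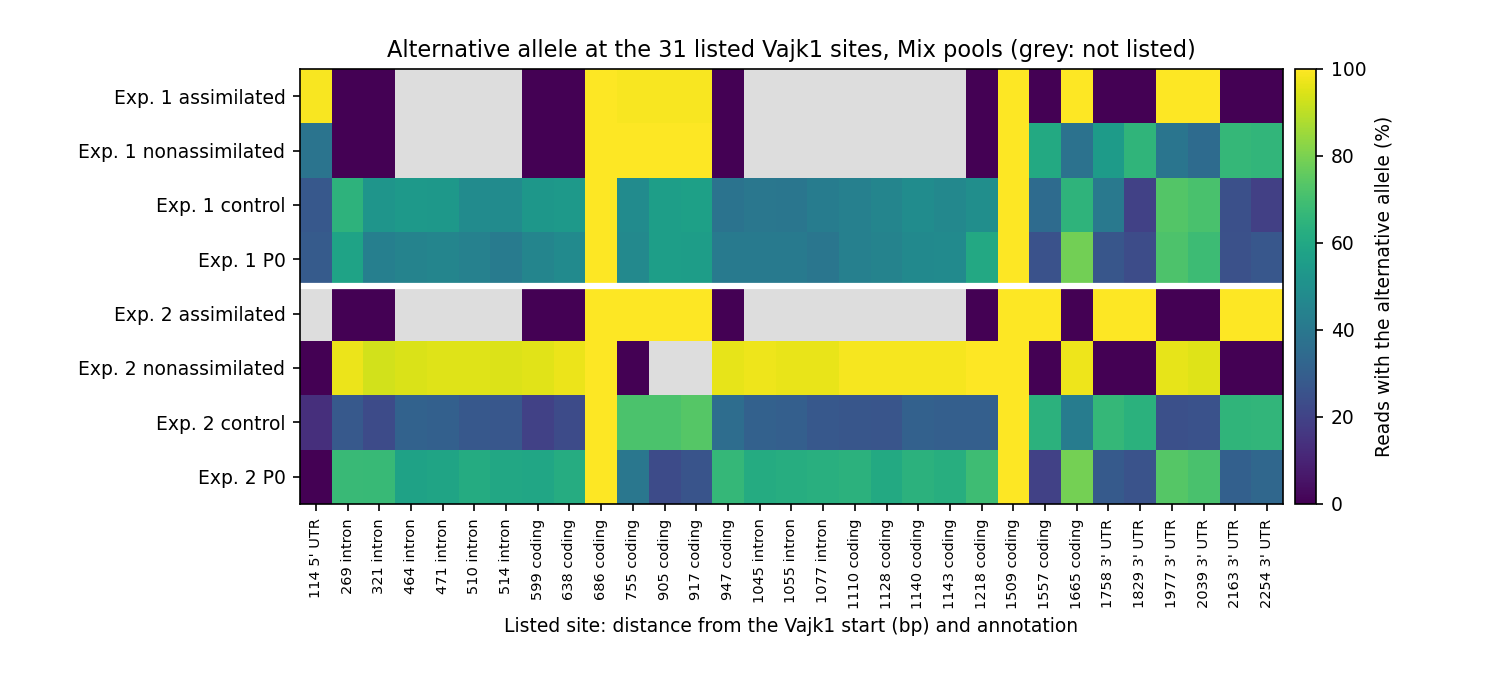
Percentage of reads with the alternative allele (colour) at each of the 31 listed Vajk1 sites, ordered by distance in bp from the gene's start (horizontal axis, with the annotation in Vajk1-RA), in the 8 Mix pools (rows); grey cells were not listed. The assimilated pools share alleles at the sites on the left that are listed for both, and hold opposite alleles at the 8 sites from 1557 to 2254 bp. The nonassimilated pool of experiment 2 holds the alternative allele at 93.3% or more at the 17 variable sites of the left part that D907 also carries.

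In assimilated flies of experiment 1, 10 of 20 tested Vajk1 sites changed against P0, while 14.2% of all sites of that table changed. In experiment 2, 17 of 19 sites changed in assimilated flies, against 26.2% of all sites. At 9 sites the change passed in both experiments, and at all 9 it went in the same direction. These 9 lay between 13922335 and 13923284, in exons 2 and 3 and the first intron. With counts scaled to 200 chromosomes per pool, the count of experiment 1 fell to 3 of 20, so that at most 3 sites could pass in both experiments taken singly. The share of all sites was not computed at this scaling. Tested with both experiments as strata (Cochran-Mantel-Haenszel chi-square test on the reads, adjusted in the same way), the same 9 of 19 sites changed, 3 with a higher and 6 with a lower alternative frequency, against 24.2% of all sites.

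The smallest p of that comparison was at 13922648, the third base of codon 121. Here the alternative allele was carried by 95 of 96 reads in assimilated, 107 of 107 in nonassimilated, 52 of 93 in control and 56 of 100 in P0 flies of experiment 1. In experiment 2 it was carried by 86 of 86 reads in assimilated, 43 of 60 in control and 16 of 70 in P0 flies, and the site was not listed for nonassimilated flies. Both assimilated pools were thus above both P0 pools, by a mean of 60.1 percentage points (adjusted p = 2.17e-27, stratified chi-square test). The neighbouring site 13922636 differed by 58.7 points (adjusted p = 1.21e-26, same chi-square test).

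At 13923284, in the first intron, the alternative allele is the one that D907 carries. It was absent from 85 reads in assimilated and 81 reads in nonassimilated flies of experiment 1, and was on 59 of 91 reads in control and 47 of 81 in P0 flies. It was also absent, in experiment 2, from 64 reads in assimilated flies, and was on 96 of 99 reads in nonassimilated, 23 of 82 in control and 67 of 99 in P0 flies. Assimilated flies were lower than P0 by 62.9 points as a mean of both experiments (difference -62.85 points, adjusted p = 4.41e-26, stratified chi-square test), and the nonassimilated pool of experiment 2 stood on the other side of P0.

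The same held at the other sites of this part of the gene where D907 carries the alternative allele. Of its 17 sites that varied in Mix, 6 were listed for assimilated flies of either experiment, and all 6 had no alternative read in them. At these 17 sites the alternative allele ranged in nonassimilated flies of experiment 2 from 93.3% to 100%, with a median of 96.7%. It ranged from 38.2% to 64.8% in control and from 39.4% to 60.5% in P0 flies of experiment 1, and from 19.3% to 35.7% in control and from 57.4% to 69.1% in P0 flies of experiment 2. The other 11 sites, at 13922410 to 13922508 and 13923039 to 13923089, were not listed for assimilated flies of either experiment or for nonassimilated flies of experiment 1, and were not analysed in those pools.

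Towards the 3′ end the assimilated flies of the experiments were fixed for opposite alleles. This part, which was delimited after its values were seen and is given as a description, holds 8 sites at 13921299 to 13921996, of which 6 lie in the 3′ UTR and 2 in the coding part of exon 3. At 13921888, the third base of codon 353, the alternative allele was on 88 of 88 reads in assimilated, 37 of 98 in nonassimilated, 56 of 86 in control and 74 of 94 in P0 flies of experiment 1. Experiment 2 had it on none of 80 reads in assimilated flies, and on 79 of 81 in nonassimilated, 31 of 74 in control and 72 of 91 in P0 flies.

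At 13921996, the third base of codon 317, the picture was inverted. The alternative allele was on none of 82 reads in assimilated flies of experiment 1, and on 62 of 102 in nonassimilated, 37 of 106 in control and 25 of 99 in P0 flies. The pools of experiment 2 had it on 91 of 91 reads in assimilated, none of 64 in nonassimilated, 36 of 56 in control and 14 of 73 in P0 flies. The change against P0 was -25.25 points in assimilated flies of experiment 1 (adjusted p = 0.0843, Fisher's exact test) and 80.8 points in those of experiment 2 (adjusted p = 1.81e-25).

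All 8 sites of the 3′ part changed in assimilated flies of experiment 2 and none in those of experiment 1, where the allele that was lost had been on 21.3% to 31.6% of P0 reads, below what the threshold can detect at this depth. With both experiments as strata none of the 8 passed. Among sites where both alleles were at 5% or more in both P0 pools, the run of opposite fixation between the assimilated pools went on from 13921996 to 13920110, past the gene's 3′ end, over 12 sites and 1887 bp. The run of equal fixation went from 13922335 to 13924149, past the 5′ end, over 15 sites and 1815 bp. On the whole of 2L, 18360 such sites were fixed for the same and 19834 for opposite alleles in the assimilated pools, so that opposite fixation was not particular to Vajk1. Site 13923439 lies within the run of equal fixation but was not counted in it. It had 0 of 106 alternative reads in P0 flies of experiment 2 and no value for assimilated flies of that experiment.

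**Figure D2:**
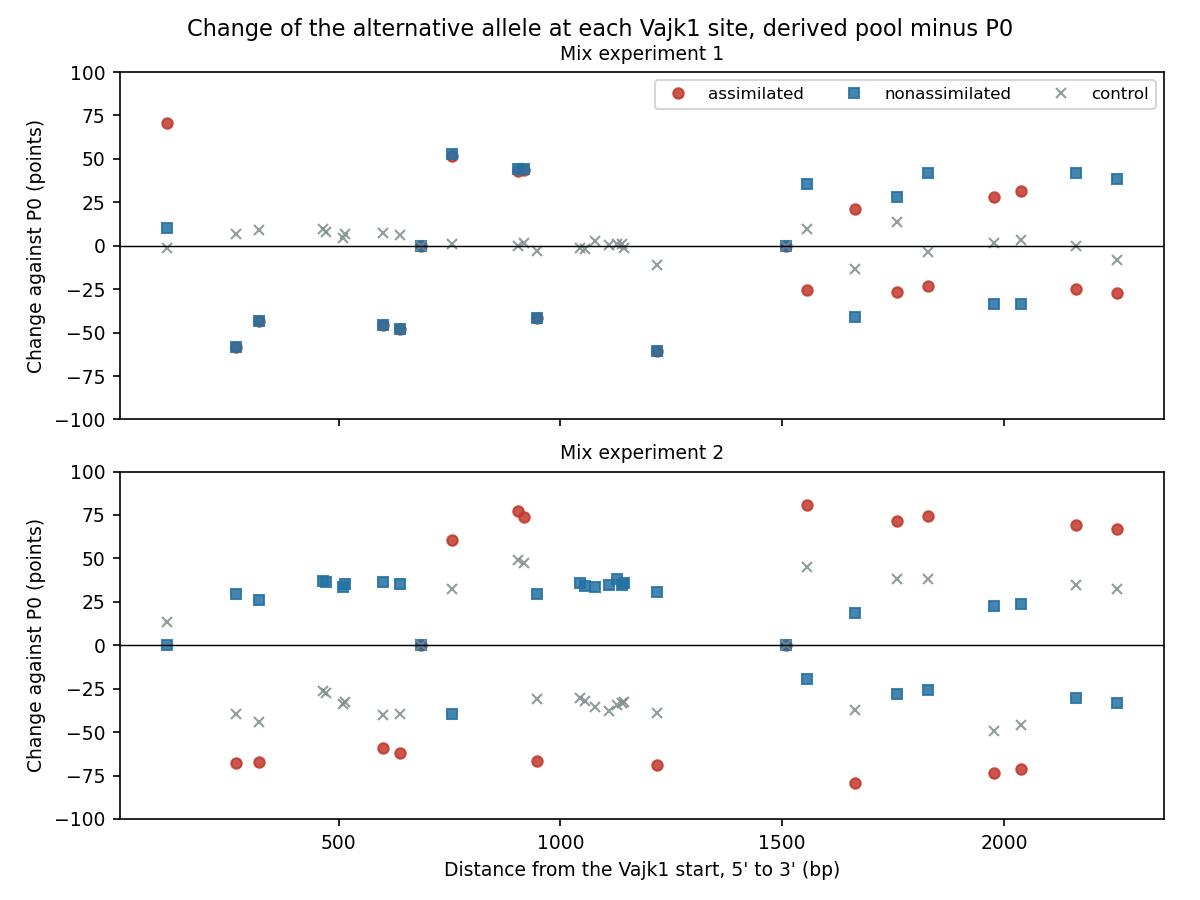
Change of the alternative allele against P0 of the same experiment (vertical axis, percentage points) at each Vajk1 site by distance from the gene's start (horizontal axis, bp); circles are assimilated, squares nonassimilated and crosses control flies. In experiment 1 the control crosses lie between -13.6 and 13.7 points, and in experiment 2 between -49.2 and 48.8 points, opposite in sign to the nonassimilated squares at 26 of 29 sites.

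Nonassimilated flies moved in opposite directions in the experiments at 15 of the 18 Vajk1 sites listed for both, in the 3′ and in the 5′ part. In the 3′ part these shifts against P0 did not pass the threshold, with 0 of 8 sites changed in each experiment. In the 5′ part 9 of 10 sites changed in experiment 1 and 1 of 19 in experiment 2. Against P0, 9 of 20 Vajk1 sites changed in experiment 1 (against 21.4% of all sites) and 1 of 29 in experiment 2 (against 20.4% of all sites). With counts scaled to 200 chromosomes these were 4 of 20 and 0 of 29, and at an adjusted p below 1e-08 the count of experiment 2 was also 0. No share of all sites was computed at these settings. The site that changed in experiment 2 was 13922798, the third base of codon 71. Its alternative allele was on 91 of 92 reads in assimilated, 109 of 109 in nonassimilated, 43 of 89 in control and 43 of 91 in P0 flies of experiment 1, and on 83 of 83, 0 of 83, 43 of 60 and 30 of 76 reads in the same order in experiment 2. Nonassimilated flies were therefore higher than P0 by 52.7 points in experiment 1 (adjusted p = 4.48e-15) and lower in experiment 2 (difference -39.47 points, adjusted p = 6.15e-06, Fisher's exact test in each).

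Of the 18 sites listed for nonassimilated flies of both experiments, 15 moved in opposite directions by 10 points or more, none moved in the same direction, and the others did not move in at least 1 experiment. With the experiments as strata 0 of 18 sites changed, against 22.6% of all sites, and 9 of 18 had an unadjusted p below 0.05, against 62.7% of all sites. The smallest p was at 13922335, the third base of codon 204, where the alternative allele was on 0 of 94 reads in nonassimilated against 52 of 86 in P0 flies of experiment 1, and on 75 of 75 in nonassimilated against 47 of 68 in P0 flies of experiment 2 (adjusted p = 1, stratified chi-square test).

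The selected lines were next compared with each other. In experiment 1 assimilated and nonassimilated flies differed at 9 of 20 Vajk1 sites (against 23.9% of all sites), namely the 8 sites of the 3′ part and 13923439. In experiment 2 they differed at 15 of 17 (against 18.8% of all sites), that is, at every site listed for both that varied in Mix. At 8 sites the difference passed in both experiments, and at all 8 it was of opposite sign. With the experiments as strata 7 of 17 sites differed (against 24% of all sites), 6 of them with a lower alternative frequency in assimilated flies.

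In experiment 1 these 7 sites hardly differed between assimilated and nonassimilated flies (-1.087 points at 13922798 and 0 at the other 6), so the stratified result rested on experiment 2. At 13922915, the third base of codon 32 and the site of smallest p, the alternative allele was on 0 of 85 reads in assimilated and 0 of 81 in nonassimilated flies of experiment 1, and on 0 of 64 in assimilated and 105 of 108 in nonassimilated flies of experiment 2 (adjusted p = 1.20e-29, stratified chi-square test). The control flies had it on 52 of 97 and 17 of 75 reads and P0 flies on 41 of 86 and 49 of 79 reads, experiment 1 first in each pair. Site 13922954, the third base of codon 19, had a mean difference of -47.77 points (adjusted p = 7.52e-29, stratified chi-square test).

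The site nearest the start of the gene, 13923439 in the 5′ UTR, was the 1 site of the 5′ part where assimilated and nonassimilated flies of experiment 1 differed. The alternative allele was on 99 of 100 reads in assimilated, 34 of 88 in nonassimilated, 28 of 102 in control and 24 of 84 in P0 flies of experiment 1. In experiment 2 it was on 0 of 82 reads in nonassimilated, 11 of 81 in control and 0 of 106 in P0 flies, and the site was not listed for assimilated flies. It had the smallest p of assimilated flies against P0 in experiment 1 (70.4 points, adjusted p = 2.20e-21, Fisher's exact test), and no value for assimilated flies of experiment 2.

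The control flies behaved differently in the experiments. In experiment 1 no Vajk1 site changed against P0 (0 of 31, against 0.75% of all sites), and 1 of 31 had an unadjusted p below 0.05, against 35.6% of all sites. The 95% Wilson intervals of control and P0 overlapped at all 31 sites. Intervals were compared at Vajk1 sites only, so no share of all sites stands beside these counts. In experiment 2 likewise 0 of 31 passed, against 0.356% of all sites, but 29 of 31 had an unadjusted p below 0.05, against 36.4% of all sites, and the intervals were apart at the same number of sites, 29 of 31. With both experiments as strata 0 of 31 changed, against 1.05% of all sites, and 24 of 31 had an unadjusted p below 0.05, against 41.5% of all sites.

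In experiment 2 the mean absolute change of control flies against P0 over Vajk1 was 34.0 ± 11.6 points (SD over 31 sites), against 10.8 ± 10.8 points over the sites of 2L, and in experiment 1 it was 4.48 ± 4.20 points, against 9.55 ± 8.37 points over 2L. At 13921576, in the 3′ UTR and the site of smallest p in experiment 2, the alternative allele was on 20 of 82 reads in control flies against 67 of 91 in P0 flies (adjusted p = 9.30e-05, Fisher's exact test). Both control and assimilated flies of experiment 2 were below P0 there, and nonassimilated flies, with 102 of 106 reads, were above it.

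Since nonassimilated lines were derived from control flies, the selected pools were also set against the control pool. Assimilated flies differed from control flies at 10 of 20 sites in experiment 1 (against 17.7% of all sites) and at 2 of 19 in experiment 2 (against 22.4% of all sites), and no site passed in both. With the experiments as strata 9 of 19 sites differed (against 23.6% of all sites). These were sites of the 5′ part, led by 13923284 (difference -46.44 points, adjusted p = 2.12e-17), 13922798 (39.5 points, adjusted p = 4.49e-14) and 13922915 (difference -38.14 points, adjusted p = 1.62e-12, stratified chi-square test for all). Without experiment 1 the count was 2, both in the 3′ part.

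Nonassimilated flies differed from control flies at 10 of 20 sites in experiment 1 (against 25.2% of all sites) and at 26 of 29 in experiment 2 (against 20.2% of all sites). At 8 sites both differences passed, and all 8 were of opposite sign. With the experiments as strata 0 of 18 differed, against 26.1% of all sites, and 5 of 18 had an unadjusted p below 0.05, against 61.9% of all sites. The differences in experiment 2 were large: at 13922954 the alternative allele was on 107 of 112 reads in nonassimilated and 16 of 83 in control flies (76.3 points, adjusted p = 2.09e-24, Fisher's exact test), with 45 of 76 in P0 flies between them.

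At 13922954 the intervals of all pools of experiment 2 were apart, with the D907 allele on 0 of 64 reads in assimilated and 107 of 112 in nonassimilated flies and control and P0 flies between them. In experiment 1 it was on 0 of 85 reads in assimilated and 0 of 81 in nonassimilated flies, whose intervals overlapped, and on 47 of 89 in control and 40 of 88 in P0 flies, whose intervals overlapped too. The P0 pools of the 2 experiments had overlapping intervals at 25 of 31 sites. The share over all sites was not computed, so whether this count is usual for the 2 P0 pools is not known.

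The mean absolute change over Vajk1 was compared with that of its surroundings, as a description. In experiment 1 it was 35.6 ± 18.3 points in assimilated flies (SD over 20 sites), against 22.2 ± 17.2 in the flanks and 27.7 ± 22.4 over 2L, and 37.1 ± 16.6 points in nonassimilated flies, against 33.3 ± 19.6 in the flanks and 24.7 ± 19.8 over 2L. In experiment 2 it was 62.7 ± 22.8 points in assimilated flies (19 sites), against 58.7 ± 23.9 in the flanks and 32.1 ± 30.5 over 2L. Nonassimilated flies of experiment 2 had 28.2 ± 11.2 points (29 sites), against 28.3 ± 12.5 in the flanks and 18.3 ± 18.5 over 2L.

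**Figure D3:**
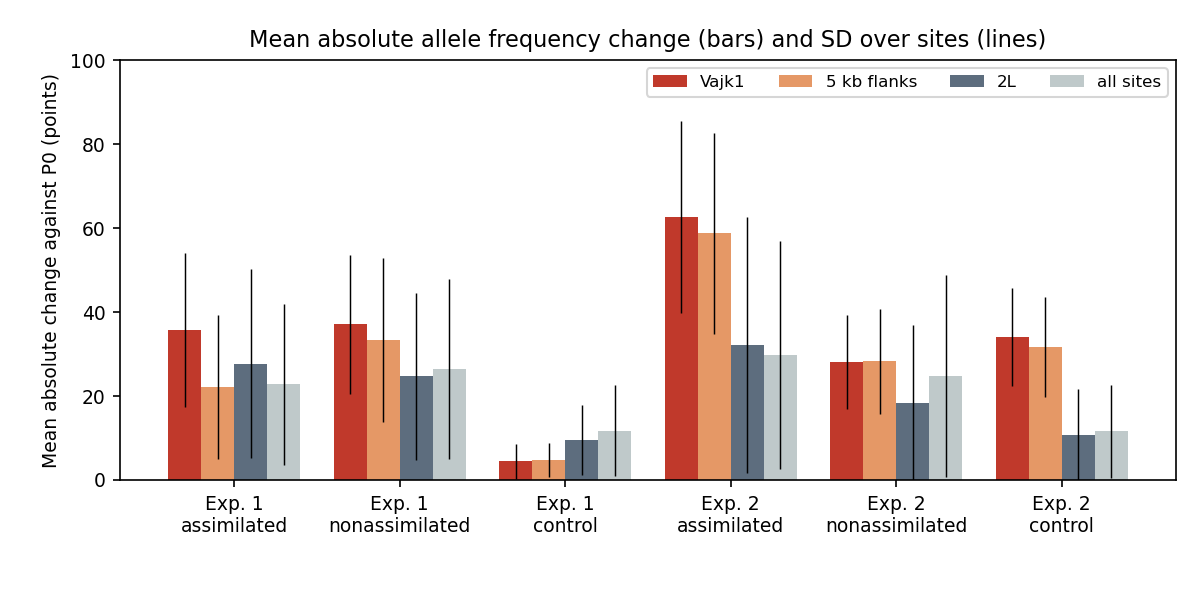
Mean absolute change of the alternative allele against P0 (vertical axis, percentage points) over the sites of Vajk1, its 5 kb flanks, 2L and the whole table, in each derived Mix pool (horizontal axis); lines are the SD over sites. Vajk1 and its flanks lie above 2L in the control pool of experiment 2 (34.0 and 31.8 against 10.8 points) and below it in that of experiment 1 (4.48 and 4.84 against 9.55 points).

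Both flanks lie wholly within Ance-3, the only other gene that overlaps them. Of the 111 sites of the flank beyond the 3′ end of Vajk1, 23 lay in exons of Ance-3 and 88 in introns, and the 80 sites of the flank beyond the 5′ end were all intronic. With both experiments as strata, assimilated flies differed from P0 at 27 of 30 sites of the 5′ flank and at 5 of 28 of the 3′ flank, against 24.2% of all sites.

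The leading site of the 5′ flank was 13926378. Its alternative allele was on 89 of 89 reads in assimilated, 87 of 87 in nonassimilated, 26 of 70 in control and 37 of 88 in P0 flies of experiment 1, and on 106 of 106, 0 of 89, 63 of 79 and 30 of 85 reads in experiment 2, in the same order. Assimilated flies were above P0 by 61.3 points (adjusted p = 1.05e-31), above control by 41.6 points (adjusted p = 7.24e-17) and above nonassimilated flies by a mean of 50 points (adjusted p = 2.4e-37, stratified chi-square test for all). Site 13926411 ranked next in all 3 comparisons, with 62.2, 42.2 and 49.4 points.

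In the 3′ flank the leading site was 13918317. The alternative allele was on 0 of 87 reads in assimilated, 68 of 101 in nonassimilated, 9 of 71 in control and 9 of 80 in P0 flies of experiment 1, and on 79 of 79, 4 of 80, 62 of 81 and 18 of 87 reads in experiment 2. Assimilated flies differed from P0 by a mean of 34.0 points (adjusted p = 2.4e-09, stratified chi-square test), although the pools of experiment 1 and 2 were at opposite ends. Between assimilated and control flies, or assimilated and nonassimilated flies, 0 of 28 sites of this flank passed the stratified test.

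**Figure D4:**
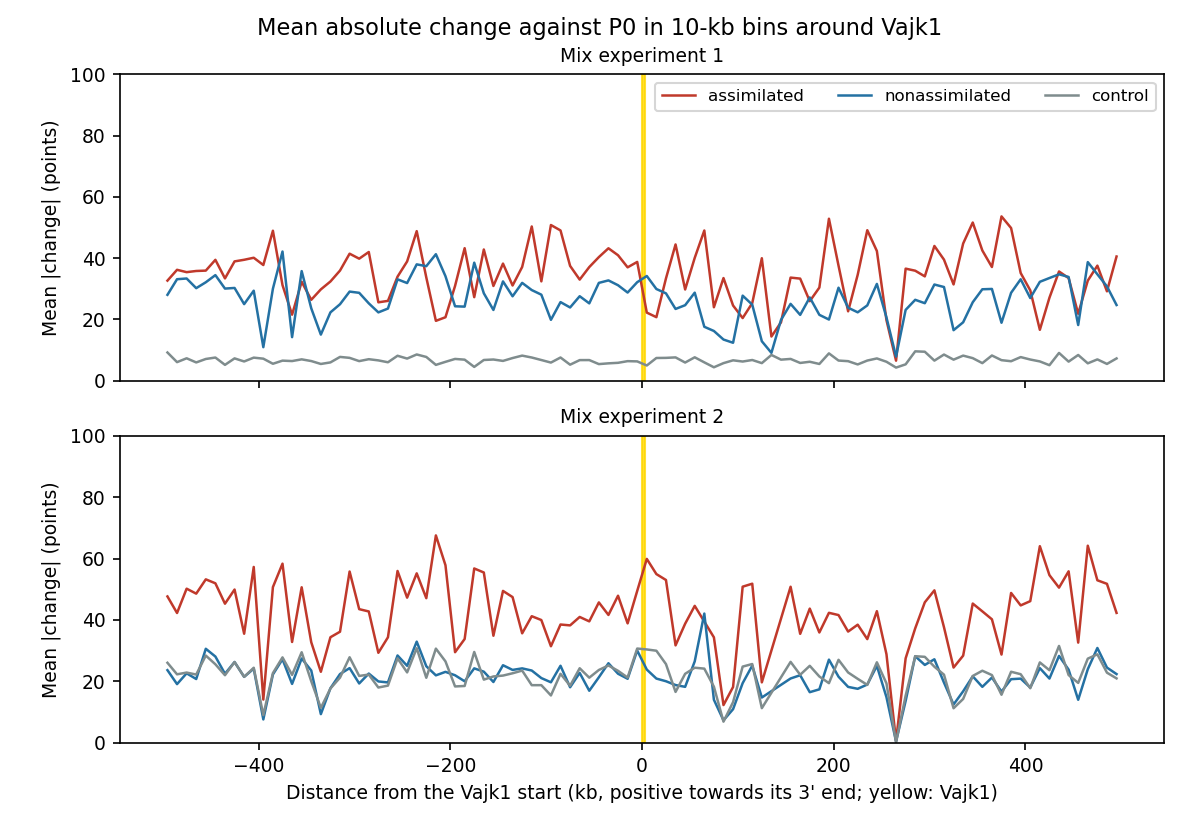
Mean absolute change against P0 (vertical axis, percentage points) in bins of 10 kb by distance from the start of Vajk1 (horizontal axis, kb), for assimilated, nonassimilated and control flies of each experiment; the yellow band is Vajk1. The bin that holds Vajk1 had 22.2, 34.2 and 4.99 points in experiment 1 and 59.9, 23.8 and 30.4 points in experiment 2, and bins with changes as large lie on both sides.

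The inbred line D907 held almost no variation in Vajk1. Its tables list 22 sites for assimilated, 22 for nonassimilated and 20 for control flies, and all reads carried the alternative allele in every pool apart from 1 of 93 reads of nonassimilated flies at 13921514, in the 3′ UTR. No site changed against P0 in assimilated (0 of 22, 4.38% of all sites), nonassimilated (0 of 22, 1.84% of all sites) or control flies (0 of 20, 0.0379% of all sites). None had an unadjusted p below 0.05 either, against 15.7%, 13.2% and 6.53% of all sites. The D907 pools thus give the alleles of this line at 22 sites and leave no variation to compare.

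Set beside these alleles, the Mix pools differed in which of them they kept. The other inbred lines that made up Mix were not analysed here, so such an allele does not mark descent from D907. Nonassimilated flies of experiment 2 carried the D907 alternative allele at 95.2% to 97.5% of reads at the 3 sites of the 3′ part that D907 lists, as at the 17 sites of the 5′ part. Assimilated flies of experiment 1 carried it on all reads at these 3 sites and on none at the 6 listed sites of the 5′ part. Assimilated flies of experiment 2 carried it on none at either. Nonassimilated flies of experiment 1 had it at 35.0% to 38.7% in the 3′ part and on none in the 5′ part.

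The genes of the Vajk family and the Nimrod cluster were counted in the same way over their annotated spans, as a list chosen with earlier results known. Against P0, with both experiments as strata, assimilated flies had 143 of 284 sites changed (50.4%, against 24.2% of all sites), in 15 of 15 genes, among them 9 of 19 in Vajk1, 7 of 16 in Vajk2, 12 of 21 in Vajk3 and 11 of 17 in Vajk4, which lies on 2R. NimC3 had 7 of 7 sites changed, and NimC4, which encodes a receptor for the clearance of dead cells, 2 of 9. Some stratified counts rested on 1 experiment. Tested singly, NimC3 had 11 of 11 sites changed in assimilated flies of experiment 1 and 0 of 7 in experiment 2. Vajk4 had 0 of 31 in experiment 1 and 14 of 17 in experiment 2. Of all sites, 14.2% changed in experiment 1 and 26.2% in experiment 2. Nonassimilated flies had 6 of 320 sites changed (against 22.6% of all sites), in Vajk3 (1 of 21), Vajk4 (3 of 12) and NimB4 (2 of 19), and control flies 0 of 456 (against 1.05% of all sites). The median over the 15 genes of the mean absolute change was 29.4 points in assimilated, 6.34 in nonassimilated and 11.1 in control flies, against 20.9, 18.9 and 9.67 points over all sites, and Vajk1 had 37.3 ± 21.4 points in assimilated and 6.24 ± 4.31 points in nonassimilated flies. In these values the changes of the 2 experiments were averaged with their sign, so that opposite changes cancel.

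**Figure D5:**
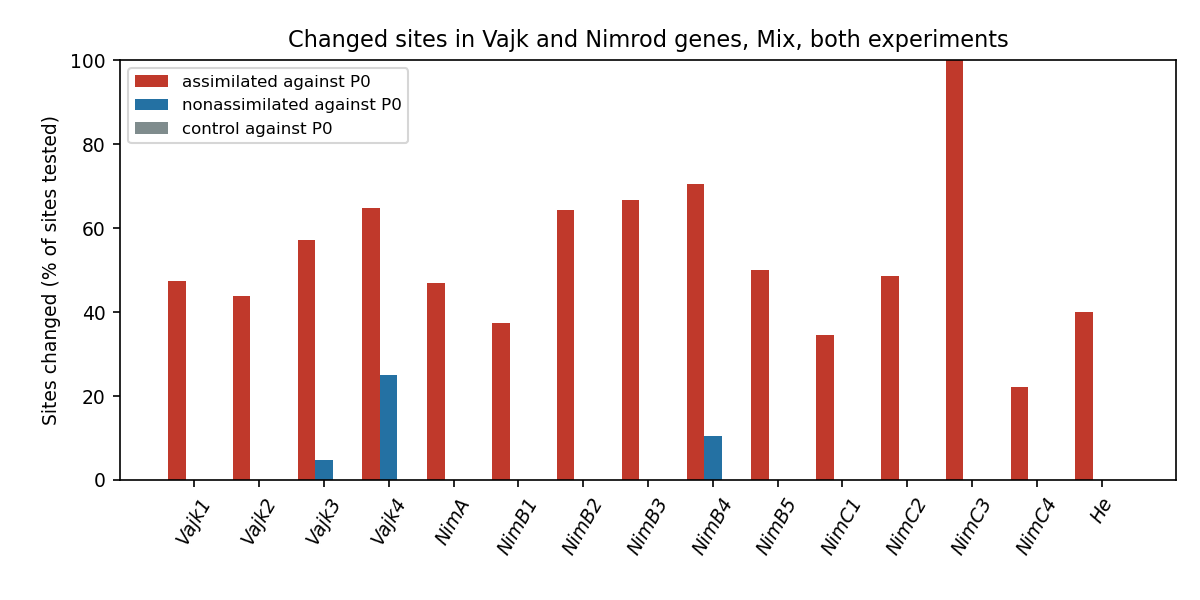
Share of tested sites that changed against P0 with both Mix experiments as strata (vertical axis, %) in each gene of the Vajk family and the Nimrod cluster (horizontal axis), for assimilated, nonassimilated and control flies. Assimilated flies had changed sites in all 15 genes (9 of 19 in Vajk1), nonassimilated flies in 3 and control flies in none, while 24.2%, 22.6% and 1.05% of all sites changed in the same tests.

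A limit bears on all values given as 0. In assimilated flies of experiment 1, where 2 listed sites less than 200 bp apart both had no alternative read, their depths were equal in 77.7% of pairs, against 11.4% of pairs where both had alternative reads, and in the other selected Mix pools the share was 81.4% to 84.2% where neither had an alternative read. In Vajk1 this concerned 11 sites of assimilated and 6 of nonassimilated flies in experiment 1, and 9 and 7 sites in experiment 2. The sites of the 5′ part in experiment 2, for example, have 64 reads at 4 places in assimilated flies. Alternative fractions above 0 and below 5% were listed at 4777 sites of that experiment 1 pool, and fractions above 95% and below 100% at 36336. A frequency of 0 therefore means that no alternative read was recorded, and the depth printed beside it was not shown to be measured at that very site.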

How the data were processed

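DNA of 12 pools (8 of Mix, 4 of D907) was analysed, while D208 flies were left out. By the methods, the authors aligned paired-end Illumina reads to dm6 with BWA and called SNPs and InDels with GATK (versions and site filters are not given in the sources used here). Each of the 9 deposited tables gives, per site, the authors' counts of reads with the reference and alternative allele in 1 derived pool and its P0 pool, as bracketed pairs that are not normalized. Their p-value, rank and q-value columns were not used. Sites that a table does not list have no value for its pool.

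The percentage of alternative reads was computed per pool, and each site was tested with Fisher's exact test (two-sided), the p multiplied by the number of sites in the table, and called changed at an adjusted p below 1e-05. For Mix, a continuity-corrected Cochran-Mantel-Haenszel test took the experiment, which has its own P0 population, as replicate block. Intervals are Wilson 95% intervals, and they and the tests cover counting error only, since reads are not independent molecules. Both tests were checked on simulated data against SciPy and statsmodels.

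The members, the gene list and the tests were chosen with earlier results of these data known. Sites were named by rule: per stratified comparison the 3 sites of smallest p, per table the 1 site of smallest p, up to 8 changed coding sites, and in each flank the 2 sites of smallest p per stratified comparison. The split into a 3′ and a 5′ part was made after the values were seen. Alternatives were another threshold or correction, at least 30 reads, counts scaled to 200 chromosomes, no replicate block and each experiment alone. The reference coordinates are those of the dm6 assembly (RefSeq sequence, Ensembl annotation), whose 2L is 23513712 bp long. Statistics used SciPy 1.17.1 and statsmodels 0.14.6 under Python 3.11.15, with pandas 2.3.3, NumPy 2.4.6 and Numba 0.67.0. Sequences were read with Biopython 1.88 and plots drawn with Matplotlib 3.10.9.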

Additional observations from a re-analysis of the deposited data

Results flagged for a closer look

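The experiments differed in the direction in which Vajk1 alleles moved, and this difference itself was not tested. In assimilated against P0 flies, the alternative allele moved in opposite directions in experiments 1 and 2 at 8 sites, all in the 3′ part, and in the same direction at 9. In nonassimilated against P0 flies it moved in opposite directions at 15 sites and in the same direction at none. In control against P0 flies it moved in opposite directions at 19 of 31 sites, but at none of these by 10 points or more in both experiments. Assimilated against control flies moved in opposite directions at 8 sites, nonassimilated against control flies at 16 and assimilated against nonassimilated flies at 9. Each experiment has 1 pool per population and its own P0 and control pools, and the linked sites of a gene count many times, so these numbers describe 2 pairs of pools.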

How the results depend on the processing

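Both the choice of experiment and the correction for multiple tests moved the stratified counts. Left to 1 experiment at a time, the sites changed in assimilated flies against P0 numbered 10 to 17 (9 with both), in nonassimilated flies against P0 1 to 9 (0 with both), in assimilated against control flies 2 to 10 (9 with both), in nonassimilated against control flies 10 to 26 (0 with both) and in assimilated against nonassimilated flies 9 to 15 (7 with both), while control flies against P0 stayed at 0. The low count of 2 is that without experiment 1. With no replicate block, the reads of both experiments summed gave 9, 0, 0, 9, 0 and 7 sites for assimilated, nonassimilated and control flies against P0, assimilated and nonassimilated against control, and assimilated against nonassimilated flies, the same counts as in the paired test.

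With Benjamini-Hochberg below 0.05 the counts against P0 were 18 in assimilated and 17 in nonassimilated flies for experiment 1, 26 in nonassimilated and 29 in control flies of experiment 2, and, with both experiments, 17 in assimilated, 8 in nonassimilated and 20 in control flies, and 4 in nonassimilated against control flies. With an unadjusted p below 0.05 they were 18, 17 and 1 in assimilated, nonassimilated and control flies of experiment 1, 26 and 29 in nonassimilated and control flies of experiment 2, 17, 9 and 24 in the stratified comparisons with P0, 5 in nonassimilated against control and 13 in assimilated against nonassimilated flies. Counts scaled to 200 chromosomes left, in experiment 1, 3 sites for assimilated and 4 for nonassimilated flies, and 0 for nonassimilated flies of experiment 2, and an adjusted p below 1e-08 also left 0 in the last. A minimum of 30 reads changed no count, and the D907 counts were 0 throughout. Shares of all sites were computed only at the main threshold and, for some comparisons, at an unadjusted p below 0.05. The counts at the other settings therefore have no share to be read against, and show only how Vajk1 counts depend on the setting. The depth limits the tests against P0 of experiment 1 in the 3′ part, as given above.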
